A study of Mus musculus with 6 samples.

Results

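The keratin family was followed in sorted mouse hair follicle cells after a carcinogen. Members were all genes whose symbol is Krt followed by a digit, found by matching the RefSeq accession of each microarray probe to the mouse annotation. This gave 53 genes read by 64 probes, out of 21368 named genes and 55681 probes on the array. Keratin-associated proteins do not match the rule and are not members. Male mice were depilated, vehicle (acetone) or DMBA was applied to their skin, and epidermal cells were taken. DMBA is 7,12-dimethylbenz[a]anthracene, a polycyclic hydrocarbon that causes skin tumours. The cells were sorted 3 days after exposure as high for the keratin 15 EGFP reporter and integrin alpha 6 and negative for Sca1, a gate that the labels assign to hair follicle stem cells and hair germ. The reporter is driven by a keratin promoter, so a keratin took part in choosing the cells. Both groups were depilated, held 3 samples from different mice, and were read on 1 array per sample. The labels do not say how many animals went into a sample.

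Keratins are the intermediate filament proteins of epithelial cells. An acidic type I keratin pairs with a basic type II keratin to form the filament, and each epithelial layer uses its own pairs. In skin, Krt5 pairs with Krt14 in the basal layer, where Krt15 marks the follicle bulge. Krt1 and Krt10 mark cells that have left the basal layer, Krt6a, Krt6b, Krt16 and Krt17 belong to the follicle and to keratinocytes at a wound edge, and separate sets build the inner root sheath and the hair shaft. Levels below are log2 processed intensities relative to the 75th percentile of the same array, so a level of 0 is the intensity that 75% of spots stay under. Levels of different probes are not compared, since each probe has its own brightness.

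Of the 53 genes, 44 had a probe well above background, by the scanner software's own call, on all 6 arrays. The 49 genes that reached this on at least 3 arrays were tested together with all 17844 such genes on the array. The 4 that were not tested were Krt75, which marks the companion layer of the follicle, Krt84 and Krt90, which were well above background on no array, and Krt76, which reached it on 1 vehicle array. Keratin probes were well above background 57, 55 and 56 times out of 64 on vehicle arrays 1 to 3 and 57, 50 and 51 times on DMBA arrays 1 to 3. The share over all probes ran from 77.0% to 83.6% on the vehicle arrays and was 80.9%, 69.3% and 73.4% on the DMBA arrays. The array of vehicle 1 lay on its own slide, scanned apart from the other 5. The 75th percentile was lowest on DMBA 1 (1355, against 1758 to 2274 on the others).

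The markers of the gate and of follicle stem cells were checked on each array. Krt15 was well above background on every array, at 5.70, 5.91 and 5.83 in vehicle and 6.49, 5.74 and 5.79 in DMBA. Itga6, Cd34, Lgr5, Lhx2 and Sox9, the other fixed markers of these cells, also passed on all 6 arrays. Ly6a, which encodes the Sca1 antigen that the gate removes, was well above background on all 6 arrays too, at -0.20, -1.67 and -1.78 in vehicle and 0.29, 0.27 and 0.13 in DMBA. Lgr5, a stem cell gene of the follicle bulge and germ, lay at 3.48, 3.10 and 3.34 in vehicle and 2.63, 2.75 and 2.63 in DMBA. For both Ly6a and Lgr5 the groups did not overlap, Ly6a being the higher and Lgr5 the lower in DMBA (limma adjusted p = 0.853 and 0.894). Sox9 was also lower without overlap (log2 difference -0.50, SE 0.24). That makes 1 of the 7 markers apart with DMBA higher and 2 with DMBA lower, against 4.88% and 5.17% of all genes tested. Their part in the keratin values was not tested.

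No keratin passed an adjusted p of 0.05 in limma, with p-values adjusted over all genes tested (0 of 49; smallest adjusted p = 0.519, against 0.438 over all genes). Over all genes tested the share that passed was 0%. At an unadjusted p under 0.05, 4 keratins were higher in DMBA (8.16% of those tested, against 2.73% of all genes) and 0 were lower (against 2.49%). The groups did not overlap, with DMBA higher, in 5 keratins (10.2%, against 4.88% of all genes) and with DMBA lower in 0 (against 5.17%). The 5 were Krt6a, Krt6b, Krt16, Krt7 and Krt23. For a single gene, an exact permutation test of 3 against 3 arrays cannot give a two-sided p below 0.1. The median log2 difference, DMBA minus vehicle, was 0.13 over the 49 keratins and -0.01 over all genes tested.

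**Figure D1:**
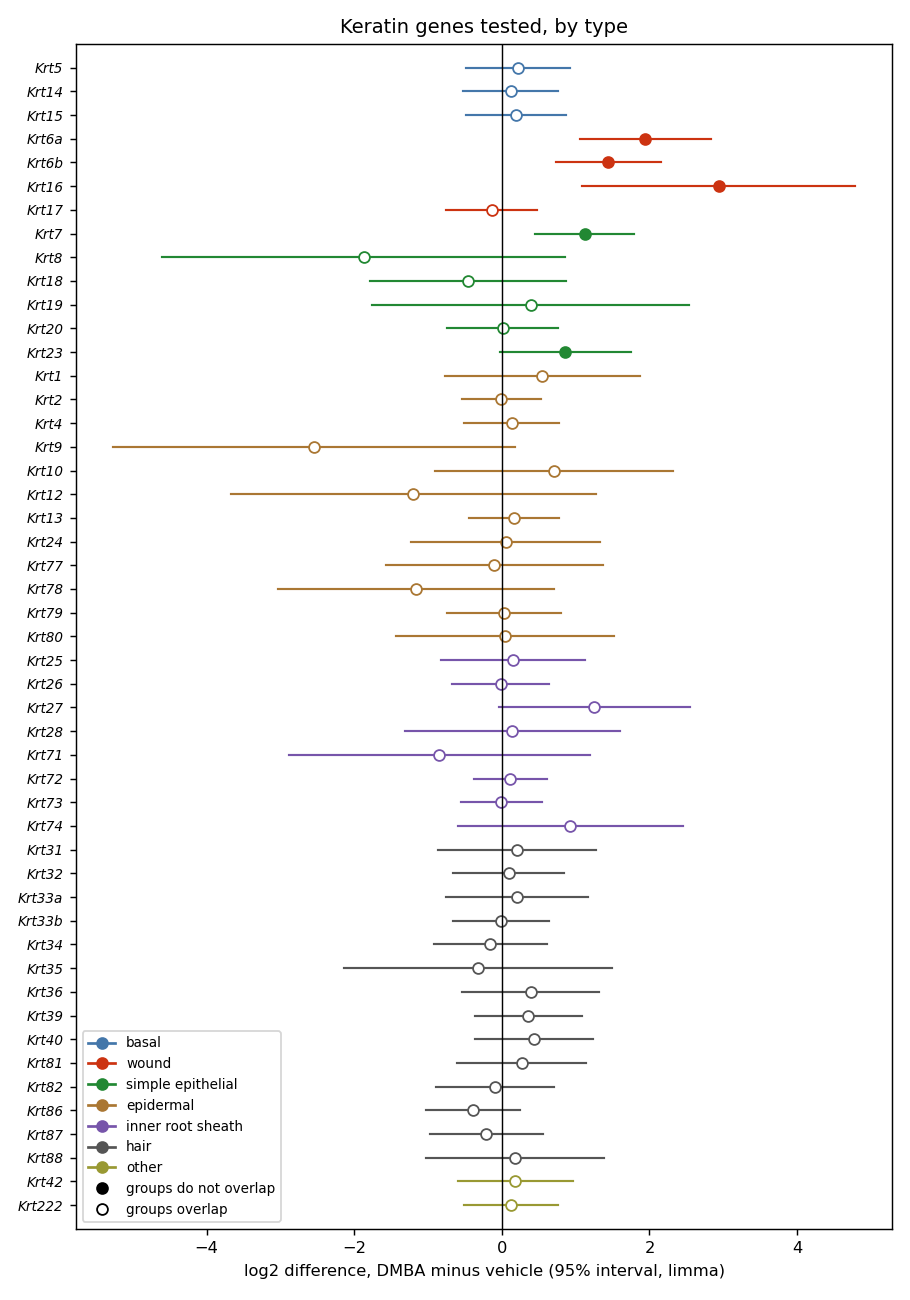
Log2 difference, DMBA minus vehicle, for the 49 keratin genes tested, coloured by type, with 95% intervals from limma. Filled points mark the 5 genes whose 3 DMBA arrays all lie above their 3 vehicle arrays; the intervals of Krt6a, Krt6b, Krt16 and Krt7 lie above 0.

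Of the wound keratins, Krt6a, Krt6b and Krt16 had the largest positive differences of the family. Krt6a, a type II keratin that keratinocytes make in quantity after injury, lay at 0.84, 0.87 and 1.26 in vehicle and 2.38, 3.62 and 2.79 in DMBA. The lowest DMBA array was above the highest vehicle array by more than the range of the vehicle arrays. The level was 0.99 ± 0.23 (SD, n = 3) in vehicle and 2.93 ± 0.63 in DMBA. The difference was 3.85-fold (95% interval 2.08 to 7.10; limma adjusted p = 0.519).

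Krt6b, its neighbour in the type II cluster and a close copy of it, showed the same order of arrays. It lay at 2.48, 2.66 and 2.84 in vehicle and 3.70, 4.57 and 4.04 in DMBA, with DMBA 2 the highest and DMBA 1 the lowest of the treated arrays, as for Krt6a. The difference was 2.72-fold (1.66 to 4.45; limma adjusted p = 0.537). A dimmer probe of the gene lay at -4.43, -1.09 and -4.84 in vehicle and -0.64, 1.25 and 0.06 in DMBA. There the groups also stayed apart, but vehicle 2 stood far above the other vehicle arrays and close to DMBA 1, and the log2 difference was 3.68 (SE 1.07) against 1.44 on the brighter probe. The files name probes by accession without their sequences, so whether a probe of 1 gene also reads the other copy was not tested.

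Krt16, the type I keratin that pairs with Krt6a and Krt6b, lay at 0.20, -1.18 and -2.37 in vehicle and 0.79, 2.69 and 1.99 in DMBA. The groups did not overlap, but the vehicle arrays were widely spread, and vehicle 1 lay closer to DMBA 1 than to the other vehicle arrays. The level was -1.12 ± 1.28 (SD, n = 3) in vehicle and 1.82 ± 0.96 in DMBA. The difference was 7.68-fold with a wide interval (2.13 to 27.7; limma adjusted p = 0.723). In Krt6a, Krt6b and Krt16 alike the treated arrays ran from DMBA 1 at the bottom through DMBA 3 to DMBA 2 at the top.

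Krt17, the type I keratin of the outer root sheath and of wound keratinocytes, did not follow. It lay at 4.73, 5.10 and 5.20 in vehicle and 5.13, 4.86 and 4.61 in DMBA, with overlapping groups. The ratio of DMBA to vehicle was 0.906 (95% interval 0.590 to 1.39), which excludes the fold found for Krt6a, Krt6b or Krt16. The difference between these genes' responses was not tested directly. Krt16 and Krt17 are neighbours in the type I cluster.

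When each array was left out in turn, the log2 difference of Krt6a ran from 1.60 to 2.22, that of Krt6b from 1.21 to 1.65 and that of Krt16 from 2.32 to 3.60. Within the slide that holds 5 of the arrays, that is without vehicle 1, the values were 1.87, 1.35 and 3.60. With each array's share of detected probes added to the model, they were 1.35, 1.02 and 2.74. The companion layer gives no reading beside them, since its marker Krt75 was well above background on no array. Because these are pools of sorted cells, a change in the share of a cell type and a change in RNA per cell cannot be told apart.

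**Figure D2:**
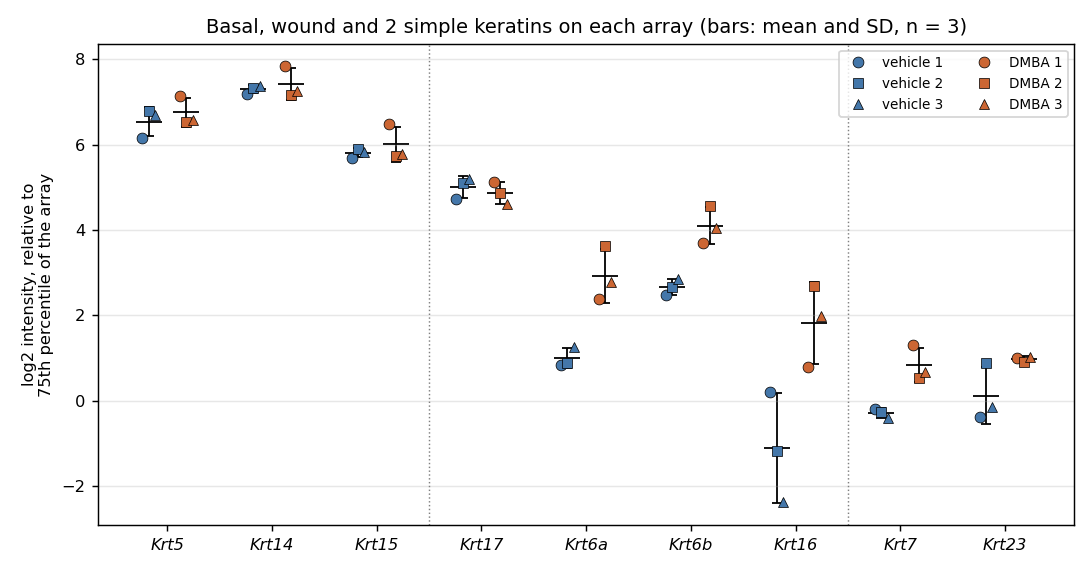
Levels on each array, as log2 intensity relative to the 75th percentile of that array, for the basal keratins (left), the wound keratins (middle) and 2 simple epithelial keratins (right); horizontal ticks with bars give the mean and SD of 3 arrays. Krt6a, Krt6b, Krt16, Krt7 and Krt23 show no overlap between groups, while the basal keratins and Krt17 do.

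The basal keratins gave close values in both groups. Krt5, the type II basal keratin, lay at 6.15, 6.78 and 6.69 in vehicle and 7.15, 6.54 and 6.58 in DMBA. Krt14, its type I partner, lay at 7.19, 7.33 and 7.38 in vehicle and 7.85, 7.16 and 7.25 in DMBA. In Krt5, Krt14 and Krt15 alike the highest array was DMBA 1, while DMBA 2 and DMBA 3 fell within or next to the vehicle range. The ratios of DMBA to vehicle were 1.16 (95% interval 0.710 to 1.91) for Krt5, 1.09 (0.696 to 1.69) for Krt14 and 1.14 (0.717 to 1.83) for Krt15. A change of 2-fold in any of the 3 lies outside its interval. Without DMBA 1 the log2 differences were 0.02 for Krt5, -0.10 for Krt14 and -0.05 for Krt15, so the small positive sign of Krt14 and Krt15 rested on that array.

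DMBA 1 stood high across the family. It was the highest of the 6 arrays in 28 of the 49 keratins (57.1%), against 29.4% of all genes tested. After quantile normalization, which gives every array the same distribution, it was the highest in 21 of the 49. The share over all genes after that step was not computed. Without DMBA 1 the median log2 difference over the keratins was -0.08 in place of 0.13, and 19 of 49 values were positive in place of 32. Krt6a, Krt6b and Krt16 were among the exceptions, with DMBA 2 the highest array in each. The differences of those 3 genes were larger without DMBA 1 than with it.

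**Figure D3:**
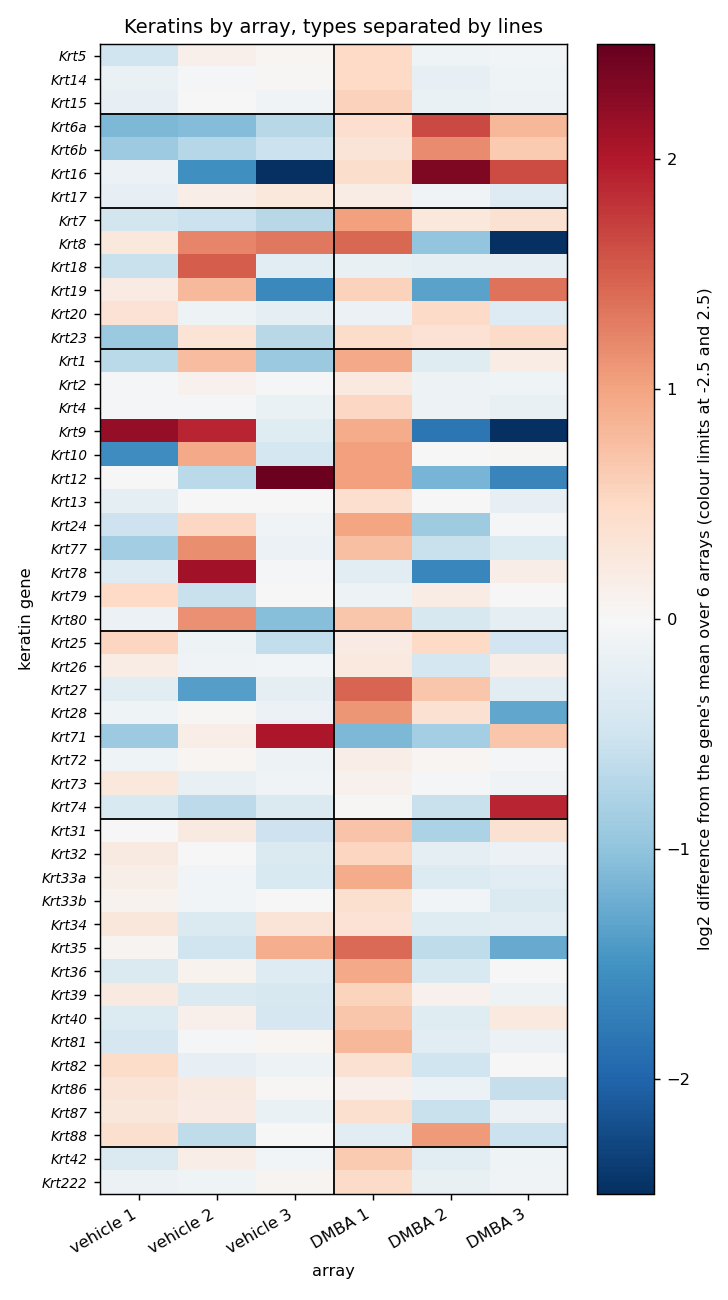
Each row is a keratin gene and each column an array; colour gives the log2 difference from the mean of that gene over 6 arrays, and lines separate the types (basal, wound, simple epithelial, epidermal, inner root sheath, hair, other). DMBA 1 is the highest array in 28 of 49 rows, whereas Krt6a, Krt6b and Krt16 are highest on DMBA 2.

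Among the keratins of simple, single-layered epithelia, 2 of 6 had groups that did not overlap, with DMBA higher (4.88% of all genes did). Krt7, a type II keratin of glands and ducts, lay at -0.19, -0.26 and -0.42 in vehicle and 1.30, 0.54 and 0.66 in DMBA. The vehicle arrays were close together, and each DMBA array lay above them by more than their range. The level was -0.29 ± 0.12 (SD, n = 3) in vehicle and 0.83 ± 0.41 in DMBA. The difference was 2.17-fold (95% interval 1.37 to 3.46; limma adjusted p = 0.695). Its log2 difference ran from 0.89 to 1.27 when each array was left out, with the lowest value without DMBA 1. Krt23, a type I keratin of this class, lay at -0.39, 0.88 and -0.14 in vehicle and 1.00, 0.90 and 1.03 in DMBA. The DMBA arrays were nearly level, and vehicle 2 came just under the lowest of them. After quantile normalization the groups of Krt23 overlapped. The difference was 1.81-fold (0.980 to 3.36; limma adjusted p = 0.963), and its log2 value ran from 0.61 without vehicle 1 to 1.24 without vehicle 2.

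The 250 bases before the annotated start of Krt7 and Krt23 are printed because these are the genes with separate groups that have an entry in the RefSeq promoter table used here (GRCm38.p6), and those of the basal gene Krt5 stand beside them. Entries were found for 36 of the 53 genes. Capitals mark matches to 4 motifs searched on both strands, the AP-1 core TGANTCA, the core of the xenobiotic response element GCGTG, the TATA box TATAAA and its A-rich variant ATAAAA, of which the last 2 overlap wherever TATAAAA occurs.

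Krt7, chr15:101412153-101412402, + strand: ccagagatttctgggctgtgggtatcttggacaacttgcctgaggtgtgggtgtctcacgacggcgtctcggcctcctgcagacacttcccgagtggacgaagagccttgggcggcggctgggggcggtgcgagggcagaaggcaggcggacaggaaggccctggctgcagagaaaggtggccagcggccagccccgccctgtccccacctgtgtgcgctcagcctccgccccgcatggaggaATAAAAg
Krt23, chr11:99493121-99493370, minus strand: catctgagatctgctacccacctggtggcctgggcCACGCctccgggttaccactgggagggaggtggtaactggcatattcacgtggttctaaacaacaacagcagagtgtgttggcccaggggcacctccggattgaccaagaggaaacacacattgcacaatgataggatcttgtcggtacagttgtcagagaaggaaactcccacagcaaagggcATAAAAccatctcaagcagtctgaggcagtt
Krt5, chr15:101712906-101713155, minus strand: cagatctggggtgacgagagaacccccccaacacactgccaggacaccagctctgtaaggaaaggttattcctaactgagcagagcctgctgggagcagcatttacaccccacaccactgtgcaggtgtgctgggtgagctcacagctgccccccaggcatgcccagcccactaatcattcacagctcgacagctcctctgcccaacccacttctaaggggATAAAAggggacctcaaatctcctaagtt

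All 3 windows held 1 copy of ATAAAA and none held TATAAA or the AP-1 core. The copy began 7 bases before the annotated start in Krt7, 31 before it in Krt23 and 29 before it in Krt5. The Krt23 window also held GCGTG once, on the reverse strand, and the windows of Krt7 and Krt5 did not. Of all 32851 windows of this length in the table, 17.0% held ATAAAA, 28.2% GCGTG, 12.4% TATAAA and 6.75% TGANTCA. A match to letters this short is a description of the sequence, and nothing on binding was measured.

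The other simple keratins had overlapping groups. Krt18, a type I keratin, lay between -2.91 and -0.84 in vehicle and between -2.60 and -2.54 in DMBA, and the vehicle spread came from vehicle 2. Krt19, a type I keratin found in bulge cells, lay between -3.09 and -0.66 in vehicle and between -2.82 and -0.12 in DMBA, a range of 2.98 over the 6 arrays. Krt20, a type I keratin of gut lining, lay between -3.16 and -2.36 on all arrays. Krt8, the type II partner of Krt18, lay at -3.94, -2.97 and -2.88 in vehicle and -2.75, -5.19 and -7.44 in DMBA. It was well above background on all 3 vehicle arrays and on DMBA 1 only, so DMBA 2 and DMBA 3 give no level for it beyond that it was not well above background. The type had a median log2 difference of 0.20 with Krt8 included, which was -0.22 without vehicle 3. Over its genes well above background on all 6 arrays, which leaves out Krt8, the median was 0.39.

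The epidermal keratins of suprabasal cells were widely spread within both groups, and 0 of the 12 tested had separate groups. The median SD within groups was 0.83 over the tested genes of this type, against 0.46 over all keratins and 0.45 over all genes tested. Krt10, the type I keratin of the spinous layer, lay at 2.18, 4.68 and 3.29 in vehicle and 4.76, 3.74 and 3.77 in DMBA. Krt1, its type II partner, lay at 2.44, 3.88 and 2.19 in vehicle and 4.06, 2.81 and 3.30 in DMBA. Both were highest on DMBA 1 and next highest on vehicle 2. The differences were 1.64-fold for Krt10 (95% interval 0.536 to 4.99) and 1.47-fold for Krt1 (0.586 to 3.66), and neither interval excludes equal levels or a doubling. A second Krt10 probe gave a log2 difference of 0.12 in place of 0.71. It was highest on vehicle 2, with 2.65, 3.57 and 2.47 in vehicle and 3.38, 2.71 and 2.97 in DMBA.

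Vehicle 2 was the highest array for 3 further genes of this type. Krt77, a type II keratin close to Krt1, lay at 1.97, 4.02 and 2.70 in vehicle and 3.60, 2.30 and 2.50 in DMBA. Krt78 lay at -1.73, 0.70 and -1.44 in vehicle and -1.68, -3.04 and -1.25 in DMBA, and its second probe gave nearly the same difference (-1.19 and -1.17). Krt80, a type II keratin of differentiating cells, lay at 1.33, 2.62 and 0.40 in vehicle and 2.16, 1.06 and 1.24 in DMBA. Without vehicle 2, each DMBA array exceeded both remaining vehicle arrays for both Krt1 and Krt10, with log2 differences of 1.07 and 1.36 (limma adjusted p = 0.982 and 0.966). The same held for 1533 of all 17844 genes without vehicle 2, against 871 with all arrays.

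Markers of cornified epidermis were also highest on vehicle 2 in sum. Of the 8 fixed markers 7 were tested, all 7 were well above background on every array, and 0 had separate groups. Their summed intensity, in units of each array's 75th percentile, was 59.4, 113 and 80.1 in vehicle and ran from 89.4 to 97.3 in DMBA. The sum is weighted to its brightest probes, those of Sbsn and Krtdap. Lor, which encodes the cornified envelope protein loricrin, lay at 2.11, 3.96 and 3.49 in vehicle and 3.36, 3.13 and 3.43 in DMBA. Their part in the values of the epidermal keratins was not tested.

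**Figure D4:**
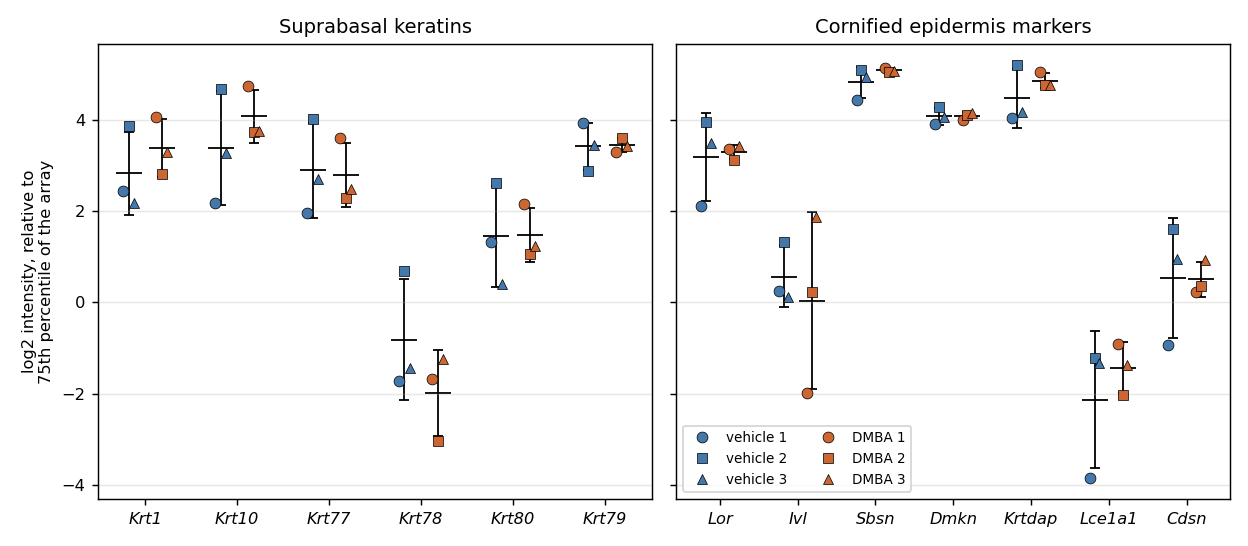
Levels on each array, as log2 intensity relative to the 75th percentile of that array, for 6 epidermal keratins (left) and the 7 tested markers of cornified epidermis (right); horizontal ticks with bars give the mean and SD of 3 arrays. Vehicle 2 is the highest array for Krt77, Krt78 and Krt80 and also for Lor, Dmkn, Krtdap and Cdsn, and the groups overlap in every gene shown.

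The remaining epidermal genes also had overlapping groups. Krt79, a keratin of the upper follicle and gland ducts, gave a ratio of DMBA to vehicle of 1.02 (95% interval 0.598 to 1.74). Krt13, a type I keratin of moist stratified epithelia such as the oral lining, lay between 5.78 and 6.01 in vehicle and between 5.81 and 6.44 in DMBA, and its second probe gave the same small difference (0.15 and 0.16). Krt9, a keratin of palm and sole skin, lay at -2.57, -2.86 and -5.07 in vehicle and -3.85, -6.57 and -7.71 in DMBA. Like Krt8, it was well above background on all vehicle arrays and on DMBA 1 only. DMBA 2 and DMBA 3 therefore give no level for it either, and no size of difference is given. Krt2, the type II keratin of the upper epidermis, depended on the probe. The brighter probe lay within a range of 0.38 over the 6 arrays. The dimmer one lay at -5.17, -0.87 and 1.17 in vehicle and -5.30, -3.57 and -4.39 in DMBA, and was well above background throughout.

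The inner root sheath keratins had a median log2 difference of 0.13 over 8 tested genes, with 5 positive and 0 with separate groups. All 8 were well above background on every array. Krt27, a type I keratin of the sheath, had the largest value. It lay at 0.71, -0.37 and 0.78 in vehicle and 2.46, 1.70 and 0.72 in DMBA, so DMBA 3 fell between vehicle arrays. The difference was 2.38-fold (95% interval 0.972 to 5.84; limma adjusted p = 0.963), and without DMBA 3 the groups were apart (log2 difference 1.70). Krt74, a transcribed pseudogene in the mouse annotation, had a log2 difference of 0.93 (SE 0.63) that came from DMBA 3, at -1.34, while the other 5 arrays lay between -3.90 and -3.21. Krt71, a type II sheath keratin, had a value of -0.85 (SE 0.84), with vehicle 3 the highest array at -0.33. Krt72 and Krt73 were the steadiest, with ranges of 0.28 and 0.45 over the 6 arrays. The brighter Krt28 probe gave 0.14, and the dimmer one did not stand well above background on DMBA 2 or DMBA 3.

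The keratins of the hair shaft showed the narrowest span of differences among the types with over 4 genes, from -0.39 to 0.43. Of 15 genes with a probe 14 were tested, 12 were well above background on every array, 8 values were positive and the groups overlapped in all 14. The median log2 difference was 0.13 and turned to -0.18 without DMBA 1. Krt40 and Krt36, type I keratins of the shaft, had values of 0.43 (SE 0.33) and 0.39 (SE 0.39), with DMBA 1 the highest array of each. Krt86, a type II shaft keratin, had the lowest value, -0.39 (SE 0.26), with levels from -3.81 to -3.51 in vehicle and from -4.41 to -3.72 in DMBA. After quantile normalization its groups were apart, with DMBA lower (log2 difference -0.45), as were those of 1092 of all 17844 genes. With the share of detected probes in the model, Krt31, Krt33a, Krt36 and Krt40 had values from 0.88 to 0.98 and an unadjusted p under 0.05. Without it their values ran from 0.20 to 0.43 and none had such a p.

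Krt42 and Krt222 fit none of these types. Krt42, a type I keratin close to Krt17, lay between 3.79 and 4.32 in vehicle and between 3.89 and 4.82 in DMBA. Krt222, a keratin-like gene, was read by a pair of probes. One lay between 6.59 and 7.25 on every array, and the other between -8.41 and -5.01 and well above background on DMBA 3 only.

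Probe choice mattered for several members. Of the 11 genes with 2 probes, 7 had both probes well above background on at least 3 arrays. In 6 of these 7 the sign of the difference agreed, and in 3, Krt5, Krt13 and Krt78, the log2 differences of both probes lay within 0.1 of each other. Among the 6 pairs with both probes well above background on all 6 arrays, the largest gaps were those of Krt2 (2.79) and Krt6b (2.24), and in both the dimmer probe gave the difference of larger size. The pairs of Krt28 and Krt12 hold readings that were not well above background, and their gaps are not read. The genes are represented by the brighter probe.

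**Figure D5:**
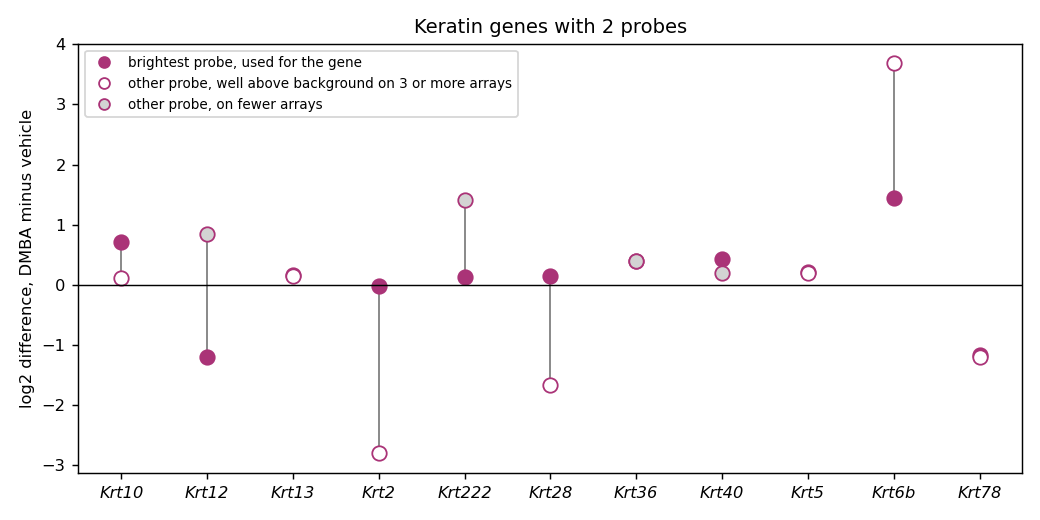
Log2 difference, DMBA minus vehicle, on each probe of the 11 keratin genes with 2 probes; filled points are the brighter probes used for the gene, white points other probes well above background on at least 3 arrays, grey points other probes on fewer arrays. Krt5, Krt13 and Krt78 agree within 0.1, while Krt2 and Krt6b differ by 2.24 or more; points that include readings not well above background, such as those of Krt12 and the dimmer Krt28 probe, give no size.

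Genes that work with keratins were listed in 2 groups, and 0 members passed after adjustment over all genes. A list was drawn up for proteins that bind or anchor keratin filaments. Of its 17 members 16 were tested, 7 values were positive and the median log2 difference was -0.07. At an unadjusted p under 0.05, 2 were higher and 2 lower (2.73% and 2.49% of all genes). Tchh, which encodes trichohyalin of the inner root sheath, lay at -7.10, -5.54 and -7.94 in vehicle and -3.79, -3.50 and -3.59 in DMBA. The probe stood well above background in 1 vehicle and 3 DMBA samples, so no size of difference is given. Tchh is 1 of the 2 higher genes, and its call is not read, since it met the filter through the DMBA samples. The desmosomal plakophilin gene Pkp2 had a value of 1.11 (SE 0.42), the keratin-binding Tchp -1.90 (SE 0.77) and Krtcap3 -0.63 (SE 0.24). Krtcap3, 1 of the 2 lower genes, and Krtcap2 are named for keratinocytes, not for binding keratin, so the list is wider than its name. The main keratin anchors lay near 0, with desmoplakin (Dsp) at -0.10 (SE 0.30), plakoglobin (Jup) at 0.21 (SE 0.32) and plectin (Plec) at 0.01 (SE 0.30).

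Among transcription factors known to act on keratin genes, all 14 were tested, 11 values were positive (48.8% of all genes were), the median was 0.08, and 1 was higher and 0 lower at an unadjusted p under 0.05 (2.73% and 2.49% of all genes). That gene was Foxn1, which promotes keratinocyte and hair differentiation. It lay at -2.04, -1.66 and -2.38 in vehicle and -1.59, 0.49 and -0.10 in DMBA, without overlap but with DMBA 1 close to the highest vehicle array. Tfap2a, an activator of basal keratin genes, also had separate groups, with 1.48, 2.90 and 2.65 in vehicle and 3.07, 3.12 and 3.09 in DMBA. In 1 factor gene, Dlx3, all DMBA arrays were below the vehicle arrays (log2 difference -0.13, SE 0.20). The groups were thus apart in 2 of 14 with DMBA higher and 1 of 14 with DMBA lower, against 4.88% and 5.17% of all genes. The AP-1 subunit gene Fosl1 had a value of 1.59 (SE 0.78) and Lef1, which acts in the hair shaft, 1.51 (SE 0.75), both with overlapping groups. Trp63, the master regulator of basal keratinocytes, lay at 0.05 (SE 0.26).

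Markers of other cells were detected in both groups, and their summed intensities are given in units of each array's 75th percentile. Probes differ in brightness, so a sum mostly follows its brightest probes and is no measure of a cell type's share. For endothelium that probe was Kdr, and for immune cells on vehicle 3 it was Cd74 (2.59). For fibroblasts (4 of 5 tested) the sum ran from 1.02 to 3.10 in vehicle and from 2.57 to 3.16 in DMBA. The log2 differences were 1.51 for Dcn, 1.29 for Col1a1, 0.51 for Col1a2 and -0.52 for Col3a1. In Dcn and Col1a1, 2 of the 4 tested, the groups did not overlap, with DMBA higher (4.88% of all genes did). For melanocytes (5 of 5 tested) the sum ran from 1.49 to 3.93 and from 3.65 to 6.05. At an unadjusted p under 0.05, 2 of these 5 were higher in DMBA (2.73% of all genes were), Mlana (log2 difference 2.72) and Tyrp1, both with overlapping groups. Tyrp1 cleared background in 1 vehicle and 3 DMBA samples, so it met the filter through the DMBA samples and its call is not read. Pmel lay at -0.47, Dct at -0.05 and Tyr at 0.10. The sum ran for immune cells (5 of 5 tested) from 1.80 to 7.01 and from 2.64 to 3.04, and for endothelium (2 of 3 tested) from 2.07 to 2.19 and from 1.98 to 2.54. Sebaceous markers (5 of 5 tested) summed to between 24.8 and 28.9 in vehicle and between 16.7 and 32.2 in DMBA. Markers of inner root sheath and hair shaft (6 of 6 tested) summed to between 8.73 and 11.2 and between 9.17 and 12.9. Their part in the keratin values was not tested.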

How the data were processed

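RNA of 6 sorted samples was read on 1-colour Agilent arrays, per the labels. The deposited scanner files hold spot intensity, background-corrected by Agilent Feature Extraction 10.7.1.1, per the file headers, and the authors' deposited series matrix holds intensity scaled to the 75th percentile. Scanner values were taken as log2 and the array's 75th percentile was subtracted. The 3671 control spots were left out, and 45 probe values flagged as outliers were set to missing, none of them in a keratin. Of 55681 probes, 28331 took a symbol by RefSeq accession from the GRCm38.p6 annotation (the arrays name mm9), and the 44948 well above background on at least 3 arrays were kept. The probe of highest mean represented each gene. DMBA was compared with vehicle in limma 3.58.1 (R 4.3.3; lmFit and eBayes, two-sided), with Benjamini-Hochberg adjustment over all 17844 genes. Only the limma comparison and its adjustment were tested on simulated data. The steps before it were not tested that way. No spot was saturated.

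The members and lists were chosen with earlier results of these data known. Named with values were all basal and wound keratins, and in other types each member with separate groups or an unadjusted p under 0.05 plus up to 3 others by size among those well above background on all 6 arrays, and up to 4 genes by p of each partner list. Krt2, Krt8, Krt9, Krt13, Krt28, Krt31, Krt33a, Krt72, Krt73, Krt77, Krt79, Krt80, Krt90, Dlx3, Dsp, Jup, Plec, Trp63 and the single marker genes given with values were chosen after their values were seen. Replicate numbers of the 2 groups did not pair the samples: same-numbered arrays correlated in their deviations from the group means with r = 0.02, -0.02 and 0.06 across genes, and the numbers carry no shared source in the labels. With 3 arrays a group, their number sets the precision.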

Additional observations from a re-analysis of the deposited data

How the results depend on the processing

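The count of 0 keratins past an adjusted p of 0.05 in limma was the same under all 15 alternatives. Krt6a, Krt6b, Krt16 and Krt7 kept a positive sign and an unadjusted p under 0.05 in each of them. Other counts moved. With each array's share of detected probes in the model, 8 keratins were higher at an unadjusted p under 0.05 in place of 4, and 758 of all 17844 genes in place of 488. The keratin median was then 0.40 in place of 0.13, with 38 of 49 positive in place of 32. By type the medians were 1.19 for wound, 0.32 for inner root sheath, 0.47 for hair, 0.39 for epidermal, 0.40 for basal, 0.43 for simple epithelial and 0.45 for other keratins, in place of 1.69, 0.13, 0.13, 0.03, 0.19, 0.20 and 0.15. After quantile normalization 1 keratin (Krt86) had all DMBA arrays below all vehicle arrays in place of 0, and Krt23 no longer had separate groups. Over all 17844 genes, 1092 lay below under this setting in place of 922, and 869 above in place of 871. With the mean of a gene's probes the wound median was 2.25. The replicate block, which pairs arrays by number only, called 1 keratin lower (Krt9) in place of 0. It called 469 of all 17844 genes lower in place of 445. When each array was left out, 4 to 6 keratins were higher and 0 to 2 lower at an unadjusted p under 0.05. Of all 17844 genes, 466 to 534 were then higher and 396 to 727 lower. Then 5 to 10 keratins had all DMBA arrays above all vehicle arrays (10 without vehicle 2, 8 without DMBA 2 or DMBA 3) and 0 to 6 below (6 without DMBA 1, 2 without vehicle 3). Fewer arrays part more easily. Of all 17844 genes, 1533 lay above without vehicle 2, 1734 without DMBA 2 and 1763 without DMBA 3, against 871 with all arrays. Below lay 2850 without DMBA 1 and 1687 without vehicle 3, against 922 with all arrays. Krt8 and Krt9 were the 2 lower ones without DMBA 1, where the remaining DMBA arrays were not well above background for either, and Krt9 the 1 without vehicle 3. The simple epithelial median ran from -0.22 (without vehicle 3) to 0.54 (without vehicle 2). The sign turned for Krt14 (-0.10) and Krt15 (-0.05) without DMBA 1 (0.25 and 0.33 without DMBA 2, the highest when 1 array was left out; 0.38 and 0.51 with the share of detected probes in the model). The cause was not tested. Normexp was run on median signals, chosen after seeing the data, since the planned mean signal is not a column of the files. Probes near background limit Krt8, Krt9, Krt12, Krt35 and Krt82, which were well above background on 1 DMBA array each.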

Other observations

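Keratin promoters were rich in TATA-like letters in the RefSeq windows used here. Of 37 windows of 250 bases before a keratin start, belonging to 36 genes, 17 held TATAAA and 20 held ATAAAA on either strand, where 12.4% and 17.0% of all 32851 windows did. The core of the xenobiotic response element, GCGTG, was in 4 of the 37 (28.2% of all windows), and the AP-1 core TGANTCA in 2 (6.75%). Keratin windows come from clusters of copied genes and are not independent of each other.

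Krt90, which was well above background on no array, lay at -7.80, -7.80 and -7.99 in vehicle and -6.33, -5.93 and -7.55 in DMBA. Without the filter on dim probes it was the 1 further keratin with separate groups. The dimmest probe of each array lay at -8.62, -8.73 and -8.23 in vehicle and -8.01, -7.32 and -7.79 in DMBA, so readings this dim lie close to the floor of each array.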
